A study of Mus with 4 samples.

Results

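The genes described here are 10 small leucine-rich proteoglycan genes, Lum, Dcn, Bgn, Fmod, Ogn, Prelp, Omd, Aspn, Epyc and Podn, out of 19505 genes with a symbol on the array. They were taken by gene symbol from the platform annotation, which holds all 10, each with 1 probe set. The set was chosen by the knockdown and diet differences of lumican (Lum) and decorin (Dcn) in these same arrays, to which other genes of the family were added. The knockdown and diet differences of the members are therefore a description, and no test is given for them.

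RNA of tumor tissue was hybridized to 4 Affymetrix arrays, 1 in each of 4 groups. Renca cells, a mouse renal adenocarcinoma line, stably expressed shNrf3, a short hairpin RNA that targets Nrf3, or the control shCtrl, and were injected under the flank skin of male BALB/cCrSlc mice. The mice were 4 to 6 weeks old when bought and were fed for 17 weeks either on normal chow (NC, the CE-2 diet) or on fat-rich food (HFD, the HFD-60 diet). Tumors were taken 2 weeks after injection. The 2 chow-fed groups are shCtrl-NC and shNrf3-NC, and the others shCtrl-HFD and shNrf3-HFD. All 4 groups share the Renca line, the mouse strain, the sex and a stable hairpin. The hairpin sits in the injected cells and not in the host's fibroblasts, vessels or immune cells. The labels do not say whether each cell population is 1 clone or how many tumors went into the RNA on each array.

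Small leucine-rich proteoglycans are secreted proteins built around a curved stack of leucine-rich repeats, and most carry chondroitin, dermatan or keratan sulfate chains. They bind fibrillar collagens and set the width and spacing of the fibrils, and several also hold growth factors or signal through cell surface receptors. In a solid tumor they come mainly from stromal fibroblasts. Decorin binds collagen and TGF-beta and restrains several receptor tyrosine kinases, biglycan (Bgn) can signal through Toll-like receptors when released from the matrix, and lumican spaces collagen fibrils in cornea, skin and tendon.

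Levels are log2 values, and a difference of 1 is 2-fold. With 1 array in a group there is no replicate error, so no difference below can be set against a spread between tumors and the small number of arrays sets the precision. The rows that the array's IDs name as negative controls had medians of 5.35 to 5.39 and 95th percentiles of 8.97 to 9.35. A reading below the control median of its own array was set to that median. Nfe2l3, the gene of Nrf3, read 6.22 and 5.56 in NC and 5.77 and 6.05 in HFD (shCtrl, then shNrf3), so it was lower under the knockdown label in NC only and close to background throughout. Every knockdown difference therefore follows the array labels and not a measured loss of Nfe2l3. The epithelial markers Krt18, Cdh1 and Epcam read 9.09 to 15.90 on the 4 arrays, while the renal tubule markers Cdh16, Pax8, Pax2, Lrp2 and Slc34a1 lay below the control median on all 4. The array labelled shNrf3-NC stood apart in markers of skeletal muscle and in some markers of fat. Acta1, skeletal muscle actin, read 12.51 there and 4.73 to 6.48 on the others, and the adipokine gene Adipoq 11.73 against 8.36 to 9.70.

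Of the 10 genes, 6 lay above the control median on every array: Lum, Dcn, Bgn, Ogn, Aspn and Prelp. The same 6 passed the filter on level (a mean of 5.73 or more) that left 10021 genes for the background counts. Fmod, Omd and Epyc lay below the control median on all 4 arrays, and Podn on both HFD arrays. Lum, Dcn, Bgn and Ogn were far above most control rows. Between 96.3% and 99.4% of control rows lay below each reading of Dcn, Bgn and Ogn, and 93.5% lay below the lowest reading of Lum. Aspn and Prelp sat among the upper control rows, above 64.8% to 89.8% and 62.3% to 87.4% of them, so their readings carry more background.

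**Figure D1:**
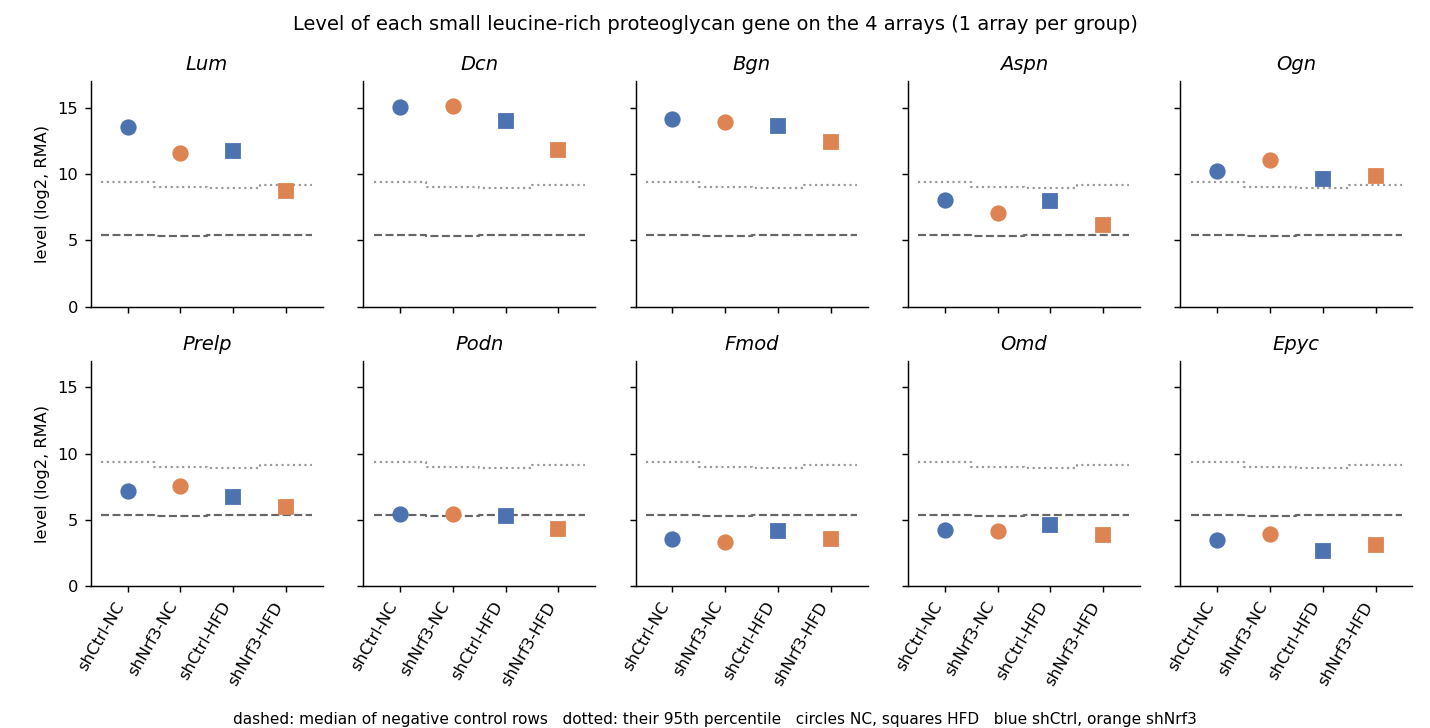
Level (log2, RMA) of each of the 10 genes on the 4 arrays, 1 point per array, with circles for NC, squares for HFD, blue for shCtrl and orange for shNrf3; the dashed line is the median of the negative control rows and the dotted line their 95th percentile. Lum, Dcn, Bgn, Aspn, Prelp and Podn were lowest on the shNrf3-HFD array, and Fmod, Omd and Epyc lay below the dashed line throughout.

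Lumican had the widest spread of the 10 genes over the arrays. It read 13.53 on shCtrl-NC, 11.57 on shNrf3-NC, 11.75 on shCtrl-HFD and 8.73 on shNrf3-HFD, a range of 4.81. The array with neither knockdown nor high-fat diet was highest, the array with both was lowest, and the arrays with 1 of them lay between and close to each other. With knockdown Lum was 3.90-fold lower in NC (difference -1.96) and 8.15-fold lower in HFD (-3.03). With high-fat diet it was 3.43-fold lower with shCtrl (-1.78) and 7.18-fold lower with shNrf3 (-2.84). Counted from the lowest difference among the 10021 genes, Lum had rank 18 and rank 8 for knockdown in NC and HFD, and rank 42 and rank 33 for diet with shCtrl and shNrf3. It was lower in all 4 comparisons under every scaling of the arrays tried, between -2.18 and -1.87 for knockdown in NC and between -3.07 and -2.81 in HFD.

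Decorin, a near neighbour of Lum on chromosome 10, had another pattern. It read 15.01 on shCtrl-NC, 15.15 on shNrf3-NC, 13.95 on shCtrl-HFD and 11.80 on shNrf3-HFD. Both NC arrays were alike, shCtrl-HFD was lower and shNrf3-HFD lowest. The knockdown difference was 0.14 in NC and -2.15 in HFD (4.44-fold lower, rank 38 of 10021 from the lowest). The small NC difference had no stable sign, running from -0.15 to 0.24 over the scalings, while the HFD difference ran from -2.20 to -1.94. For diet Dcn was 2.09-fold lower with shCtrl (-1.06) and 10.2-fold lower with shNrf3 (-3.35, rank 23 from the lowest). The shCtrl value ran from -1.43 to -0.95 over the scalings, so that it did not reach 2-fold under all of them.

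Lum and Dcn thus differed most where only knockdown was compared in chow-fed mice. The knockdown difference of Lum in NC minus that of Dcn was -2.10 on the log2 scale, a value that no shift of whole arrays by a constant can change. In HFD it was -0.88. For diet the Lum difference minus that of Dcn was -0.72 with shCtrl and 0.51 with shNrf3. The other genes of that stretch of the chromosome, Kera, the keratocan gene of cornea, and Epyc, the epiphycan gene of growth cartilage, lay below the control median on all 4 arrays.

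Biglycan, which carries chondroitin or dermatan sulfate like decorin, kept the order of arrays shCtrl-NC, shNrf3-NC, shCtrl-HFD, shNrf3-HFD from high to low. Its readings were 14.16, 13.88, 13.58 and 12.39 in that order, so that the last stood apart and the others lay close together. Its knockdown differences were -0.28 in NC and -1.19 in HFD (2.28-fold lower). The diet differences were -0.58 with shCtrl and -1.50 with shNrf3 (2.82-fold lower). After centring each array on the genes past the filter the HFD knockdown difference was -0.98, just under 2-fold.

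Asporin (Aspn), a relative of decorin and biglycan with a run of aspartate residues that binds collagen and TGF-beta, followed the hairpin more than the diet. It read 8.02 on shCtrl-NC and 7.99 on shCtrl-HFD, against 7.04 on shNrf3-NC and 6.14 on shNrf3-HFD. Both shCtrl arrays were above both shNrf3 arrays. The knockdown difference was -0.98 in NC and -1.86 in HFD (ranks 462 and 75 from the lowest). For diet Aspn differed by -0.03 with shCtrl, a value whose sign turned with the scaling (-0.34 to 0.08), and by -0.90 with shNrf3. As all Aspn readings lay below the 95th percentile of the control rows, these sizes are less certain than those of Lum and Dcn.

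Osteoglycin (Ogn), also called mimecan, had the opposite sign to Lum for knockdown in both diets. It read 10.19 on shCtrl-NC, 11.06 on shNrf3-NC, 9.63 on shCtrl-HFD and 9.84 on shNrf3-HFD. Both NC arrays were above both HFD arrays, and within each diet the shNrf3 array was the higher. The knockdown difference was 0.87 in NC (1.82-fold) and 0.21 in HFD, and it stayed above 0 under every scaling (0.66 to 0.96 and 0.16 to 0.42). Diet differences were -0.56 with shCtrl and -1.22 with shNrf3 (2.33-fold lower). The highest Ogn reading lay on shNrf3-NC, the array with the highest summed levels of muscle and fat markers, as did the highest readings of Dcn and Prelp. The part of those cells in the values was not tested.

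Prelp, a protein of basement membranes and cartilage that binds collagen and heparan sulfate, read 7.18 on shCtrl-NC, 7.61 on shNrf3-NC, 6.71 on shCtrl-HFD and 5.99 on shNrf3-HFD. It had the same order of arrays as Dcn. Its knockdown difference was 0.43 in NC and -0.71 in HFD, and its diet differences were -0.47 with shCtrl and -1.61 with shNrf3. With readings below the 75th percentile of the control rows (6.58 to 6.82) set to that value, the HFD knockdown difference became 0.04, so its direction rests on readings near background.

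The other 4 genes gave no usable differences. Podocan (Podn), which binds collagen and restrains smooth muscle cell growth, read 5.50 on shCtrl-NC, 5.44 on shNrf3-NC, 5.31 on shCtrl-HFD and 4.31 on shNrf3-HFD, around or below the control median. Fibromodulin (Fmod), a keratan sulfate proteoglycan of tendon and cartilage that shares a collagen site with lumican, read 3.34 to 4.22. Osteomodulin (Omd) of bone read 3.87 to 4.63 and Epyc 2.68 to 3.97. Fmod is the genomic neighbour of Prelp on chromosome 1, and Omd lies between Aspn and Ogn on chromosome 13. A measured and an unmeasured member thus lie side by side at each of these places, and the 2 measured genes of the chromosome 13 group, Aspn and Ogn, had knockdown differences of opposite sign in both diets.

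**Figure D2:**
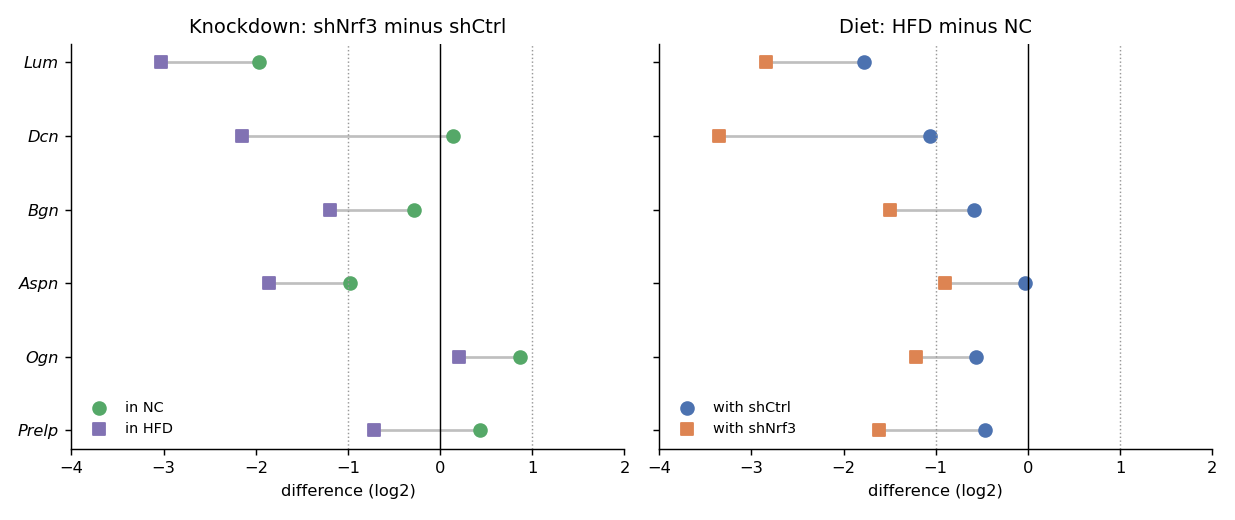
Differences (log2) of the 6 genes above the control median on every array: at left shNrf3 minus shCtrl in NC (circles) and HFD (squares), at right HFD minus NC with shCtrl (circles) and shNrf3 (squares); dotted lines mark 2-fold. Every square lies to the left of its circle, Lum is left of -1 in all 4 comparisons, and Ogn is to the right of 0 in both knockdown comparisons.

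Counted over all 10 genes, 1 was 2-fold or more lower with knockdown in NC (Lum) and 4 in HFD (Lum, Dcn, Bgn and Aspn), with 0 higher in either. The background share of genes 2-fold or more lower was 4.47% in NC and 6.95% in HFD, and that of genes higher 13.2% and 2.30%. For diet, 2 of the 10 were lower with shCtrl (Lum and Dcn, background 3.79%) and 5 with shNrf3 (Lum, Dcn, Bgn, Ogn and Prelp, background 4.93%). Again 0 were higher, against backgrounds of 14.5% and 1.76%. Because the genes were chosen with these contrasts known, nothing is read from the counts beyond which genes they hold. The median over the 10 genes was -0.04 and -0.34 for knockdown in NC and HFD, beside 0.14 and -0.14 over all genes past the filter. For diet it was -0.31 with shCtrl and -1.06 with shNrf3, beside 0.26 and -0.03. The 3 genes below the control median on all arrays enter these medians near 0, as does Podn for knockdown in HFD. The value of -0.04 in NC is only the difference between the control medians of the arrays compared. Over the 6 genes above the control median on every array, the knockdown medians were -0.07 in NC and -1.52 in HFD. Their diet medians were -0.57 with shCtrl and -1.55 with shNrf3. The background depends on the scaling: of all genes at 2-fold or more, 74.6% were higher with knockdown in NC and 24.8% in HFD, against 53.5% and 56.3% after centring on the genes past the filter. For diet the shares were 79.3% with shCtrl and 26.3% with shNrf3, against 45.9% and 41.1%.

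Lum was 2-fold or more lower with knockdown in both diets, as were 0.808% of the 10021 genes. Lum and Dcn were 2-fold or more lower in HFD with both constructs, as were 0.539% of the genes. For Dcn with shCtrl this depends on the scaling, as the difference was -0.95 after centring on the median of all gene rows. The knockdown comparisons of the 2 diets have no array in common, and neither do the diet comparisons of the 2 constructs, but each knockdown comparison shares an array with each diet comparison. The shNrf3-HFD array, lowest for Lum, Dcn, Bgn, Aspn and Prelp, enters both the HFD knockdown difference and the shNrf3 diet difference.

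**Figure D3:**
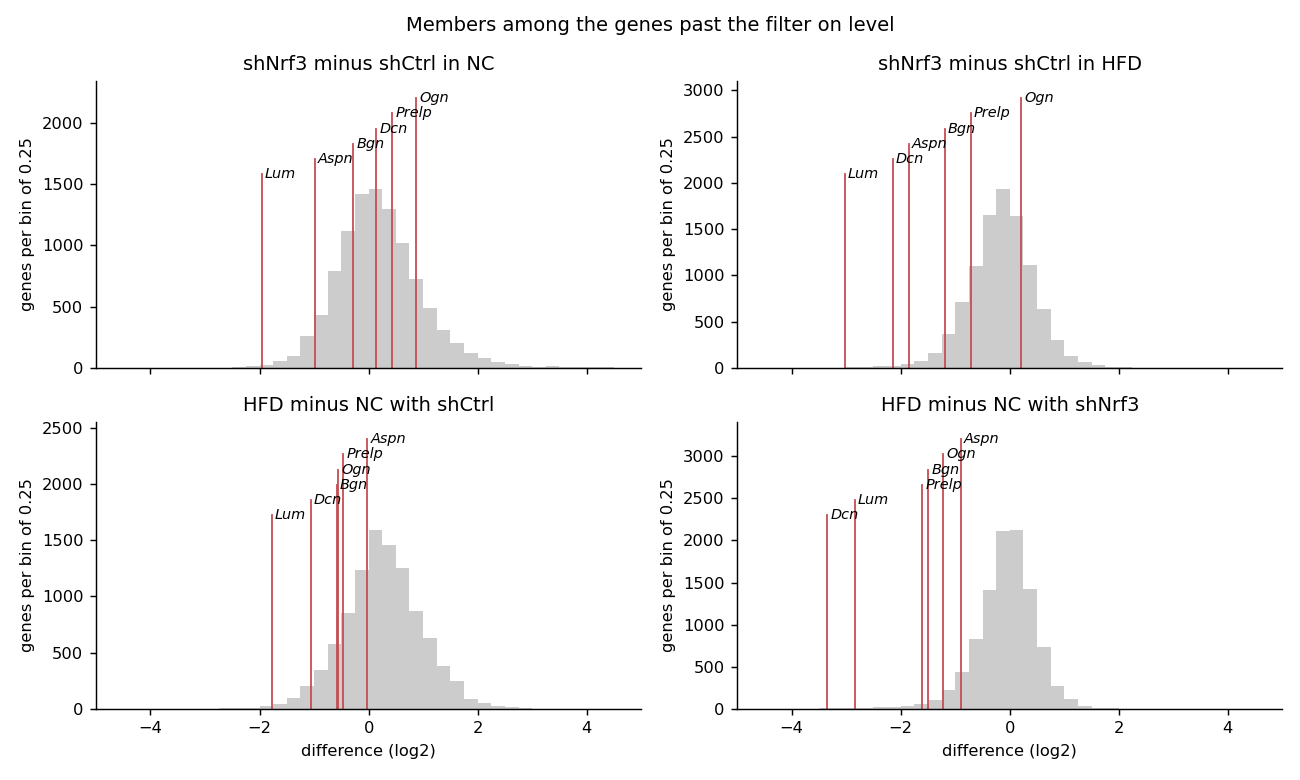
Number of genes per bin of 0.25 (log2) in each of the 4 comparisons, over the 10021 genes past the filter, with the 6 genes above the control median on every array marked by red lines whose height has no meaning. Lum lies in the left tail in all 4 panels and Dcn in the middle of the NC knockdown panel.

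The knockdown difference in HFD was lower than that in NC for all 6 genes that read above the control median on every array, which is the same as saying that the diet difference was lower with shNrf3 than with shCtrl. The gap was -2.29 for Dcn, -1.14 for Prelp, -1.06 for Lum, -0.91 for Bgn, -0.87 for Aspn and -0.66 for Ogn. The median over all genes past the filter was -0.30, and 21.7% of them had a gap of -1 or lower and 6.37% of 1 or more, where Dcn had rank 222 from the lowest and the other 5 genes ranks 1761 to 3412. After centring on the genes past the filter the gaps were smaller, -1.87 for Dcn and -0.64 for Lum. The direction of each of the 6 gaps held under the 3 other scalings. These gaps were not tested, since 1 array in a group leaves no error for them.

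Fibroblast markers were also lower with knockdown in HFD. Of 19 measured markers, 10 were 2-fold or more lower with knockdown in HFD and 0 higher, with a median of -1.06. Over all genes past the filter the shares were 6.95% and 2.30%. In NC 2 were lower and 1 higher, beside shares of 4.47% and 13.2%, and nothing is read from these low counts. The marker median in NC was -0.04. That value is set by Tcf21, which lay below the control median on all 4 arrays, and the median was -0.34 with low readings kept as deposited. For diet the medians were -0.15 with shCtrl and -0.87 with shNrf3. The log2 of the summed level of the list was 18.41 on shCtrl-NC, 17.92 on shCtrl-HFD, 17.72 on shNrf3-NC and 16.69 on shNrf3-HFD, in the same order of arrays as Lum. That order rests on Col3a1 (17.56, 16.91, 16.73 and 14.99) and Postn (16.02, 14.26, 13.89 and 12.85), and without these 2 genes the sums were 16.41, 16.68, 16.49 and 16.01, no longer in the order of Lum. Without Col1a1 and Col1a2 as well, the sums in the same order were 15.04, 16.00, 15.79 and 15.63, lowest on shCtrl-NC, where Lum was highest. Most of that remaining sum is Tcf4 (13.87, 15.01, 14.95 and 14.74) and S100a4 (13.20, 14.50, 13.79 and 14.22). It therefore says little of the other markers. Among the fibroblast markers the PDGF receptor gene Pdgfrb differed with knockdown by -1.40 in NC and -1.92 in HFD, and dermatopontin (Dpt), which binds decorin, by 0.53 and -2.36. In tissue RNA, fewer fibroblasts and less proteoglycan RNA in each fibroblast cannot be told apart.

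Set against the fibroblast median of the same comparison, Lum differed by -1.93 and -1.97 for knockdown in NC and HFD and by -1.63 and -1.97 for diet with shCtrl and shNrf3. With low readings kept, the value for NC was -1.62. Dcn differed from the marker median by 0.18 (0.48 with low readings kept) and -1.09 for knockdown and by -0.91 and -2.48 for diet. Bgn lay close to it for knockdown (-0.24, or 0.06 with low readings kept, and -0.14) and differed from it by -0.44 and -0.63 for diet. Ogn was above it for knockdown by 0.90 and 1.26.

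Markers of other cells differed as well. Their 2-fold counts are to be read against the background of all genes past the filter. Under knockdown that background was 4.47% lower and 13.2% higher (NC), then 6.95% and 2.3% (HFD). Under high-fat diet it was 3.79% lower and 14.5% higher (shCtrl), then 4.93% and 1.76% (shNrf3). Nothing is read from the low counts of these short lists. Where many genes of a list lay below the control median on both arrays compared, the list's median is only the difference between the 2 control medians (-0.04 and 0.03 for knockdown in NC and HFD, -0.03 and 0.04 for diet with shCtrl and shNrf3) and is left out below. Adipocyte markers had median knockdown differences of 1.14 in NC (8 of 14 measured 2-fold or more higher) and -0.60 in HFD (6 lower), and median diet differences of 0.51 with shCtrl and -0.95 with shNrf3. Of 20 measured skeletal muscle markers, 9 were higher with knockdown in NC (median 0.70) and 9 lower for diet with shNrf3 (median -0.70). The log2 of the summed level of the muscle list was 14.20 on shNrf3-NC and 10.72 to 11.46 on the others. For the adipocyte list it was 16.10 on shNrf3-NC, 15.78 on shCtrl-HFD, 14.48 on shCtrl-NC and 14.51 on shNrf3-HFD. Most of the adipocyte sum is Fabp4, a fatty acid carrier that read 15.75, 15.58, 14.20 and 14.25 on these arrays, and without it the sums were 13.90, 12.84, 11.98 and 11.91. Connective tissue of muscle and fat also makes decorin and osteoglycin. The comparisons that leave out the shNrf3-NC array are knockdown in HFD and diet with shCtrl, where Lum differed by -3.03 and -1.78 and Dcn by -2.15 and -1.06. Both use the shCtrl-HFD array, and fat markers differed in them too (adipocyte medians of -0.60 and 0.51). The part of muscle and fat in these values was not tested. Endothelial markers had medians of -0.85 and -0.43 for knockdown. For diet 3 of them were lower and 1 higher with shCtrl, and 0 either way with shNrf3. Macrophage markers had medians of 1.19 and 0.55 for knockdown and of 0.38 and -0.20 for diet (3 higher and 1 lower with shCtrl, 2 lower with shNrf3). Of 10 tenocyte and fascia markers 0 were counted at 2-fold in the 4 comparisons, but Comp, Fmod, Kera and Chad lay below the control median throughout. Some of the other values are bounds, such as 0.97 or more for Cilp2 with diet and shNrf3, and -0.73 or lower for Tnmd with knockdown in NC. Keratinocyte markers had medians of -0.10 and -0.78 for knockdown (6 of 13 lower in HFD). For diet 4 of them were higher with shCtrl (median 0.59, with Krt10 at 3.05) and 1 with shNrf3. Of 11 pericyte and smooth muscle markers, 3 were lower and 1 higher with knockdown in NC (median -0.40) and 0 either way in HFD, and for diet 2 were lower with shCtrl (median -0.69) and 1 with shNrf3 (-0.16). Of 15 epithelial and tubule markers 6 lay below the control median on all arrays. Among the others the largest knockdown differences in NC were -1.56 for Epcam, -0.91 for Cldn4, -0.83 for Esrp1 and -0.71 for Krt18, and only Epcam reached 2-fold. The markers did not move together in NC. Krt8 was at -0.10 and Krt19 at 0.53, while Cldn3 read 7.01 with shCtrl and 7.58 with shNrf3, and Esrp2 6.61 and 6.74. In HFD the list's median was -0.45 for knockdown. For diet the epithelial medians were 0.28 and 0.23. Of 11 chondrocyte and bone markers 7 lay below the control median on all arrays. For knockdown 1 was higher in NC, and 1 higher and 1 lower in HFD, and for diet 1 was higher and 1 lower with shCtrl and 1 lower with shNrf3. Their part in the proteoglycan values was not tested.

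**Figure D4:**
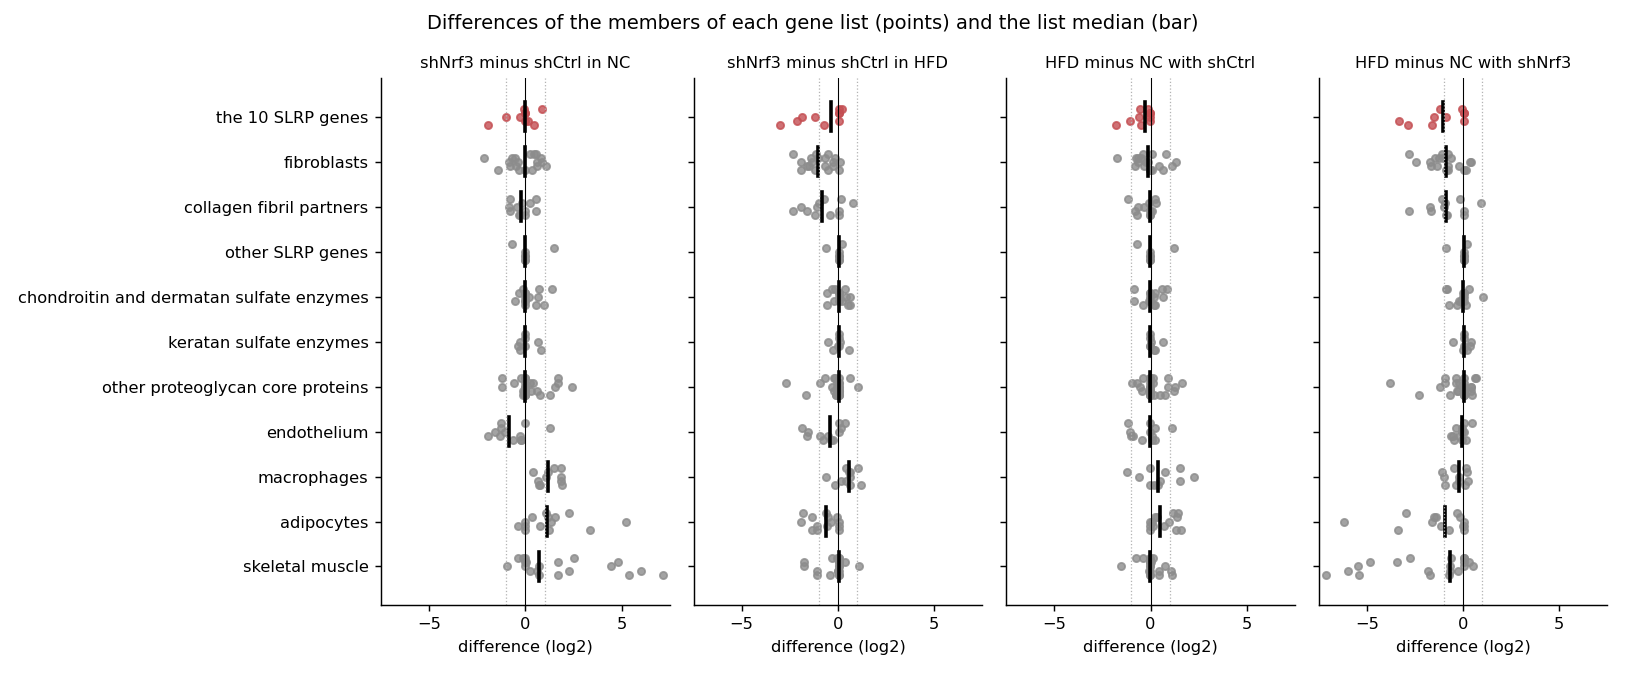
Differences (log2) of the measured genes of 11 lists (points, red for the 10 proteoglycan genes) with the median of each list (black bar) in the 4 comparisons; dotted lines mark 2-fold. The medians of the fibroblast and collagen partner lists lie left of 0 in the HFD knockdown and shNrf3 diet panels, with some genes of each list right of 0. Single muscle genes, and Retn of the adipocyte list (5.23 and -6.21), differ by more than 5 in size in the panels that use the shNrf3-NC array.

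The collagens and matrix proteins that the proteoglycans bind had median knockdown differences of -0.24 in NC and -0.85 in HFD. In NC 0 of the 12 measured reached 2-fold in the lower direction, and in HFD 5 did. Over all genes past the filter 4.47% and 6.95% were lower. The fibril collagen gene Col3a1 differed by -0.83 and -1.92, Col1a2 by -0.79 and -1.62 and Col1a1 by -0.34 and -1.17. Fn1, the gene with the highest readings of this list, differed by -0.19 in NC and went the other way in HFD (0.80). The log2 of the summed level of the list, which Fn1 dominates, was highest on shNrf3-HFD (19.80). Lum minus the median of this list was -1.72 and -2.18. For diet the list had medians of -0.05 with shCtrl and -0.90 with shNrf3, and Col5a2, whose chain helps start thin fibrils, was 2-fold or more lower with both constructs (-1.17 and -1.09).

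Few enzymes that build the sugar chains reached 2-fold. Over all genes past the filter 3.79% to 6.95% were lower and 1.76% to 14.5% higher in the 4 comparisons. Low counts in lists this short are therefore no trait of the enzymes. Of the 15 measured chondroitin and dermatan sulfate enzymes, Chsy3, Chst3, Chst7 and Chst13 lay below the control median on all arrays. In the 4 comparisons 0 of the 15 were 2-fold or more lower, and 2 differences reached 2-fold in the higher direction. One was that of Ust, a uronyl sulfotransferase, with knockdown in NC (1.38, and -0.28 in HFD), the other that of Chst14 for diet with shNrf3. Dse, the epimerase that turns chondroitin into dermatan sulfate, read 9.12 and 10.07 in NC and 8.72 and 9.36 in HFD (shCtrl, then shNrf3), and so was higher with knockdown in both diets (0.95 and 0.64). Chst11, a chondroitin sulfotransferase, was lower in HFD with both constructs (-0.84 and -0.91), while Chst14, which sulfates dermatan, was higher (0.62 and 1.05). Of the 8 keratan sulfate enzymes B4galt4, Chst1 and Chst5 lay below the control median on all arrays, and 0 of the other 5 reached 2-fold, with Chst2 at 0.80 and 0.58 for knockdown. Of the 6 enzymes of the linkage sugar chain, Xylt1, which puts the first sugar on the core protein, was 2-fold or more higher with knockdown in NC (1.14, and 0.35 in HFD).

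Among proteases that cut these proteins or procollagen, 2 of 13 measured genes lay 2-fold or more below shCtrl with knockdown in NC, and 4 in HFD, with medians of -0.37 and -0.58. The shares over all genes were 4.47% and 6.95%. The stromelysin gene Mmp3, whose product cleaves decorin, was lower in both diets (-1.23 and -1.35). The aggrecanase gene Adamts5 was lower in HFD with both constructs (-1.39 and -1.36), at levels of 5.73 to 7.56 near background.

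Of 23 measured signalling partners and receptors, 3 lay 2-fold or more above and 2 below shCtrl with knockdown in NC, and 1 above and 2 below in HFD. Over all genes past the filter 13.2% were above and 4.47% below in NC, and 2.3% and 6.95% in HFD. The counts of this list are near those shares. Tgfbr3, the TGF-beta co-receptor betaglycan and itself a proteoglycan, was higher in both diets (1.54 and 1.04). Ccn4, a matricellular protein that decorin and biglycan bind, was lower in both (-1.02 and -2.12), as was the VEGF receptor gene Kdr (-1.56 and -1.57). Tlr2, through which biglycan signals, differed with diet by 0.99 with shCtrl and 0.18 with shNrf3. Of 7 other measured small leucine-rich proteoglycan genes 5 lay below the control median on all arrays. Podnl1 read 5.66, 7.15, 6.85 and 6.25 in the group order above, so that it was higher with knockdown in NC and lower in HFD (-0.60). Of 27 other proteoglycan core proteins 10 lay below the control median on all arrays. With knockdown in NC 5 were higher, namely serglycin (Srgn, 2.43), Sdc3 (1.71), Sdc2 (1.68), Tgfbr3 (1.54) and Sdc4 (1.30), and 2 were lower, Sdc1 (-1.24) and Col18a1 (-1.23). In HFD 1 was higher (Tgfbr3) and 2 lower (Vcan and Prg4). Versican (Vcan), a large matrix proteoglycan, differed with diet by 0.15 and -2.27, lubricin (Prg4) by -0.71 and -3.81 and the glypican gene Gpc1 by 1.24 and 0.44.

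Among the 9677 genes past the filter with every reading above the control median, the profiles most like those of Lum and Dcn over the 4 arrays were ranked by the root mean square distance between profiles centred on their own mean. With 4 arrays this is a description only. Nearest to Lum were Cthrc1 (distance 0.72), a secreted protein of matrix-making fibroblasts, periostin (Postn, 0.73), the extracellular sulfatase gene Sulf1 (0.74), Rasgrp3 (0.77) and Il6 (0.77), with Dcn at rank 9 (0.81). No gene copied the depth of the Lum profile closely. Nearest to Dcn were Efemp1 (0.07), which encodes the matrix protein fibulin-3, the secreted Wnt modulator gene Sfrp2 (0.11), Prg4 (0.22), Serpina3n (0.28) and Cpxm1 (0.37), with Bgn at rank 41 and Lum at rank 85. Efemp1 had knockdown differences of 0.09 in NC and -2.07 in HFD and diet differences of -1.01 and -3.16, each within 0.20 of the Dcn value. Sfrp2 had knockdown differences of 0.04 and -2.19.

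**Figure D5:**
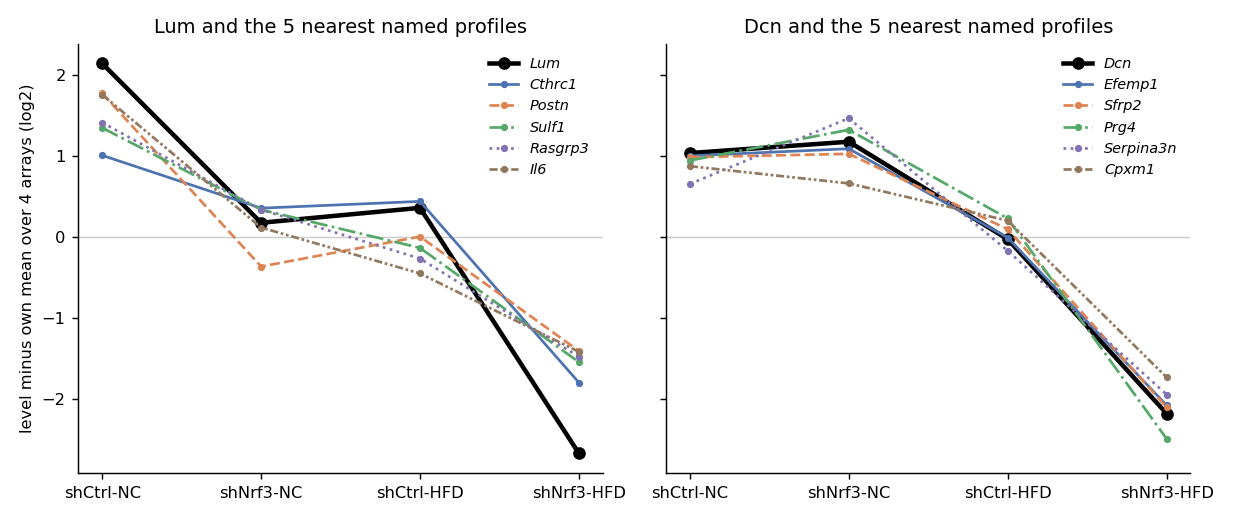
Level minus the gene's own mean over the 4 arrays (log2) for Lum (left) and Dcn (right) in black, with the 5 named genes of nearest profile. Efemp1 and Sfrp2 run almost on the Dcn line, whereas none of the Lum neighbours falls as low on the shNrf3-HFD array.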

How the data were processed

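Affymetrix arrays were hybridized with biotin-labelled material made from 100 ng of total tumor RNA, per the labels' protocols. The deposited values are log2 expression levels that the authors made with Affymetrix Expression Console and RMA, per the submitters' processing notes. Tool versions: not given in the sources used here. RMA normalizes arrays to each other, so a shift shared by most genes can be hidden or moved. Medians over all 28846 rows were 5.73 to 5.81. An array gives no depth of counts.

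Names of probe sets came from the platform's annotation, which gave 1 symbol for 19572 probe sets, several for 0, and left 2634 of 22206 transcript rows unnamed here. All 19572 Entrez IDs matched RefSeq (GRCm38.p6), used for names, chromosomes and neighbours only, since the build behind the array annotation is unknown here. Of several probe sets of a gene the one with the highest mean was taken. Genes whose mean reached the median row mean (5.73) formed the background (10021 genes).

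Differences between arrays were computed in Python 3.11.15 after setting each reading below its array's median of 5222 negative control rows to that median. Genes at 1 or more on the log2 scale were counted. Cyclic loess used limma 3.58.1 in R 4.3.3. Counting and loess were tested on simulated data. With 1 array in a group no p-value was computed. The members and lists were chosen with earlier results of these data known. Genes were named by rule: all 10 members, Nfe2l3, list members past 2-fold in 1 direction in both diets or constructs (otherwise up to 4 with the largest averaged difference), up to 4 per cell type list, and the 5 profiles nearest to Lum and to Dcn. Named in addition, after their values were seen, were marker genes that check the tissue (Krt18, Cdh1, Epcam, Acta1, Adipoq) or lay at background. Alternatives were 3 other scalings, 2 other treatments of low readings, a 1.5-fold threshold, the mean of probe sets and 2 other filters.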

Additional observations from a re-analysis of the deposited data

Results flagged for a closer look

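Decorin and Prelp had knockdown differences of opposite sign in the 2 diets, with all 4 readings above the control median. For Dcn the difference was 0.14 in NC and -2.15 in HFD, a gap of -2.29. For Prelp it was 0.43 in NC and -0.71 in HFD, a gap of -1.14. The difference between diets was not tested, since each group has 1 array. Both genes read highest on shNrf3-NC, the array with the highest summed levels of muscle and fat markers, and the part of those cells was not tested. For Dcn the sign in NC turned with the scaling (-0.15 after cyclic loess), so the opposite signs rest on the normalization, while the gap stayed between -2.43 and -1.87. For Prelp the signs held under the other scalings, at levels within the range of the control rows, but with readings set to the 75th percentile of those rows the HFD difference was 0.035, the same sign as in NC.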

How the results depend on the processing

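Lum was 2-fold or more lower in all 4 comparisons under each scaling and treatment of low readings tried. Its 4 differences, and those of Dcn in HFD and with shNrf3, kept their direction throughout. For knockdown in NC, 2 genes rather than 1 were lower after cyclic loess, after centring on the genes past the filter and at 1.5-fold (2 in each case), and at 1.5-fold 1 was higher. For diet with shCtrl, 1 rather than 2 was lower after centring on the median of all gene rows, where Dcn was at -0.95. The median of the members in that comparison was -0.62 after centring on the genes past the filter. For the gap between diets, 3 genes were lower, against 5 after centring on the median of all gene rows, 1 after centring on the genes past the filter and 6 at 1.5-fold, and the median of -0.77 became -0.35 after centring on the genes past the filter, -0.43 after loess and -0.33 with readings set to the 75th percentile of the control rows. The last setting also gave a median of 0.058 for knockdown in HFD (-0.34 as reported, -0.88 with low readings kept) and of -0.58 for diet with shNrf3, turned the HFD knockdown difference of Prelp to 0.035, and turned the median of skeletal muscle markers in NC to -0.19, as many of their readings lie below that percentile. The cause of the other changes was not tested. Centring on the genes past the filter was chosen after the data were seen. It moved the background share of genes lower to 7.84% and 3.62% for knockdown in NC and HFD and to 8.32% for diet with shCtrl, and that of genes higher to 4.67% for knockdown in HFD, 7.06% and 2.68% for diet with shCtrl and shNrf3. Of the gap it gave 11.3% lower and 13.9% higher. With that centring 905 rather than 1318 of the 10021 genes were higher with knockdown in NC. For diet with shNrf3, 385 rather than 494 were lower. Of the 5 profiles nearest to Lum 4 remained after loess, and the 5 nearest to Dcn remained under all scalings. No paired analysis was possible because each group has 1 array and the labels number no replicates. Signal over background limits Aspn, Prelp and Podn, and Fmod, Omd and Epyc were not measurable.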
